A study of Mus musculus with 9 samples.

Results

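The transcriptome of Uhrf1-deficient muscle stem cells was compared with that of oil-treated controls, gene by gene and family by family. The genes were chosen by level alone: every gene of the authors' deposited table with a mean of at least 1 TPM (read counts scaled by gene length and library size) over Control and Mutant was kept. That left 13625 of 22631 genes, which held 99.8% of all Control TPM and 99.7% of all Mutant TPM. Satellite cells came from hindlimb muscles of mice aged 9 weeks, in 3 Control and 3 Mutant libraries. Control mice were labelled as treated with oil and Mutant mice with tamoxifen, 150 µl at 20 mg/ml into the abdomen on 5 days, to switch on Cre recombination of Uhrf1 in satellite cells. Cells of both groups were grown for 3 days after isolation, seeded at 5000 cells/cm2 on Matrigel in rich medium. The sources used here give neither the Cre driver, nor the Uhrf1 allele, nor the number of mice behind a library. The series also has 3 Cre Control libraries, treated with tamoxifen, which were not used here, so the effect of tamoxifen and that of Uhrf1 loss cannot be told apart in any value.

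Uhrf1 binds hemimethylated DNA behind the replication fork and recruits Dnmt1, which copies the methylation pattern onto the new strand. Without this step, methylation is diluted with each cell division. Satellite cells are the resident stem cells of skeletal muscle: after injury, or once isolated and plated, they leave quiescence, divide as myoblasts that express Myod1, and later express myogenin, stop dividing and fuse into fibres with contractile proteins.

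All gene values come from the authors' deposited table, which holds group means and no value per library. A subset of the means of at least 10 TPM was checked from their digits, 4745 in Control and 4911 in Mutant. In these, 3 times the mean was whole at the 6th significant digit for 99.7% of Control means and 99.8% of Mutant means, against about 33.3% and 34.1% before multiplying. The group means were therefore read as means of 3 libraries. A level is a mean TPM. A difference is the estimate of the authors' test, computed from the authors' deposited table as statistic times standard error (log2, Mutant minus Control), with that standard error (SE). A gene was called where the authors' adjusted p was below 0.05, and "rose" and "fell" are used for called genes only. How deeply each library was read for genes is not known. The labels do not state whether each library came from its own animal, so the p-values reflect only how these libraries vary, which may be technical. In bulk RNA, fewer cells of a type and less RNA per cell cannot be told apart.

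One library stood apart in the repeat counts deposited with the genes. The endogenous retrovirus IAPEz-int took 0.501% and 0.675% of repeat counts in Control 1 and Control 2 and 9.29%, 11.1% and 16.3% in the 3 Mutant libraries, but 13.1% in the library labelled Control 3. Since the Control means cover 3 libraries, that library is in each of them. The gene values could not be computed without it, because the table gives no library its own column.

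Changes were many and mostly small. Of the 13625 genes, 3765 were called (27.6%), 1946 higher (14.3%) and 1819 lower (13.4%) in Mutant, and the median log2 ratio of all genes was 0.00. The higher calls were the larger ones. A ratio of at least 1.5-fold was reached by 777 of the genes that rose and by 170 of those that fell, a ratio of 2-fold by 279 and 26, and a ratio of 4-fold by 16 and 4. The median size of the estimate was 0.55 among genes that rose and 0.33 among genes that fell. The lower calls were the more abundant ones, with a median level of 59.0 TPM against 22 TPM. Among the 4938 genes of 1 to 10 TPM, 11.9% rose and 2.29% fell. Among the 7041 genes of 10 to 100 TPM, the shares were 15.8% and 15.8%. Among the 1646 genes over 100 TPM, 14.8% rose and 36.2% fell. The median SE shrank from 0.34 to 0.10 and 0.06 over these classes, so small differences could pass only among abundant genes.

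**Figure D1:**
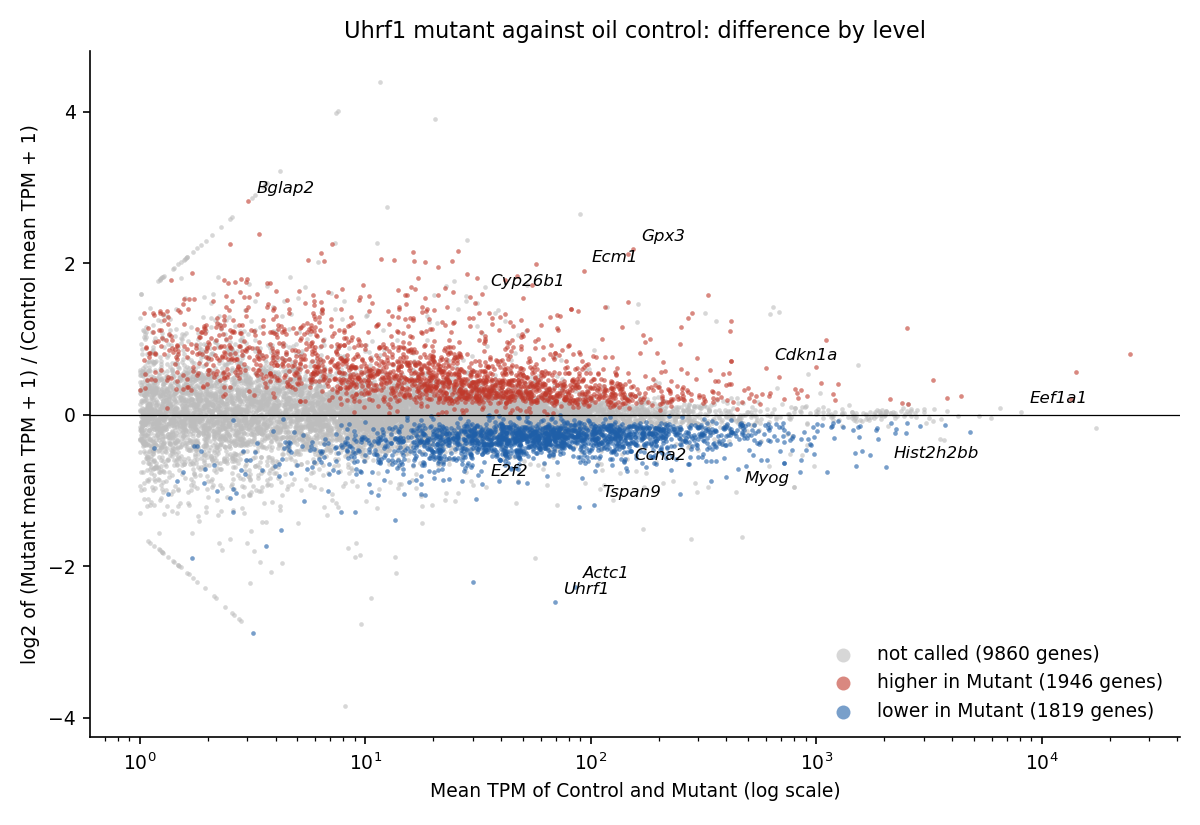
Difference of each of the 13625 genes (log2 ratio of the mean TPM plus 1, vertical) by its mean TPM (horizontal, log scale), with genes called higher in Mutant in red, lower in blue and not called in grey. The 1946 higher genes reach farther from 0 than the 1819 lower genes, which crowd close to 0 at levels above 10 TPM.

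Uhrf1 itself came first among the genes that fell. The gene (ENSMUSG00000001228), on chromosome 17, 56303321 to 56323486 (plus strand, GRCm38), fell from 118 TPM to 20.4 TPM (estimate −3.12, SE 0.60, adjusted p = 4.01e-06). The table does not show which exons the remaining reads cover. Dnmt1, its partner enzyme, fell from 122 TPM to 94.3 TPM (estimate −0.37, SE 0.06, adjusted p = 3.2e-09). Next to Uhrf1, the lowest estimates among called genes of at least 10 TPM belonged to Actc1, Slc4a3 and Obsl1. Actc1, the cardiac alpha actin of embryonic muscle, fell from 141 TPM to 28.5 TPM (estimate −2.30, SE 0.84, adjusted p = 0.0385). Slc4a3, an anion exchanger, fell from 20.0 TPM to 7.07 TPM (estimate −1.70, SE 0.49, adjusted p = 0.00475). Obsl1, an obscurin-like cytoskeletal adaptor, fell from 124 TPM to 52.8 TPM (estimate −1.20, SE 0.28, adjusted p = 0.000303). Ccdc141, E2f2, Tead4, Tspan9, Sntb1 and Ppargc1b completed the 10 lowest, with estimates from −1.20 to −1.05. Tead4 is a DNA-binding partner of the Hippo effectors, Tspan9 a tetraspanin, Sntb1 a syntrophin of the dystrophin complex and Ppargc1b a coactivator of mitochondrial genes.

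The 10 highest estimates among called genes of at least 10 TPM lay between 2.05 and 2.34, and the ratios of their mean TPM between 4.25 and 5.07. Ltc4s, leukotriene C4 synthase, rose from 5.35 TPM to 27.1 TPM (estimate 2.34, SE 0.30, adjusted p = 8.45e-13). Def6, a guanine nucleotide exchange factor, rose from 3.95 TPM to 19.6 TPM (estimate 2.25, SE 0.40, adjusted p = 4.98e-07). Cd80, a costimulatory ligand of T cells, rose from 4.63 TPM to 22.2 TPM (estimate 2.23, SE 0.21, adjusted p = 5.34e-24). Gpx3, a secreted glutathione peroxidase, and Serpine2, an inhibitor of thrombin and plasminogen activators, had the highest levels of the 10. Gpx3 rose from 55.0 TPM to 253 TPM and Serpine2 from 54.1 TPM to 239.8 TPM. AA467197, the dicarbonyl reductase Dcxr, Kctd12, the R-spondin receptor Lgr6 and the gelatinase Mmp2 were the other members.

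Among called genes of 1 to 10 TPM the estimates were larger and their errors wider. Bglap2, an osteocalcin gene, was listed at 0 in Control and at 6.06 TPM in Mutant (estimate 5.99, SE 1.36, adjusted p = 0.000151). Alpl, tissue-nonspecific alkaline phosphatase and like osteocalcin a product of bone-forming cells, rose from 0.411 TPM to 6.37 TPM (estimate 4.09, SE 0.44, adjusted p = 5.37e-18). Robo3, a Slit receptor family member, rose from 0.214 TPM to 4.82 TPM (estimate 5.04, SE 0.80, adjusted p = 1.44e-08). Got1l1 and Smtnl1 also rose, from 0.0682 TPM to 2.67 TPM and from 0.156 TPM to 1.94 TPM. The lowest estimates of this class belonged to AC166369.2, an unprocessed pseudogene listed at 0 in Mutant, the adhesion molecule Jaml, the pseudogene Hmgb1-ps2, the titin-binding protein Ankrd2 and the steroid dehydrogenase Hsd3b7. Pseudogenes share sequence with their parent genes, so their counts are uncertain.

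**Figure D2:**
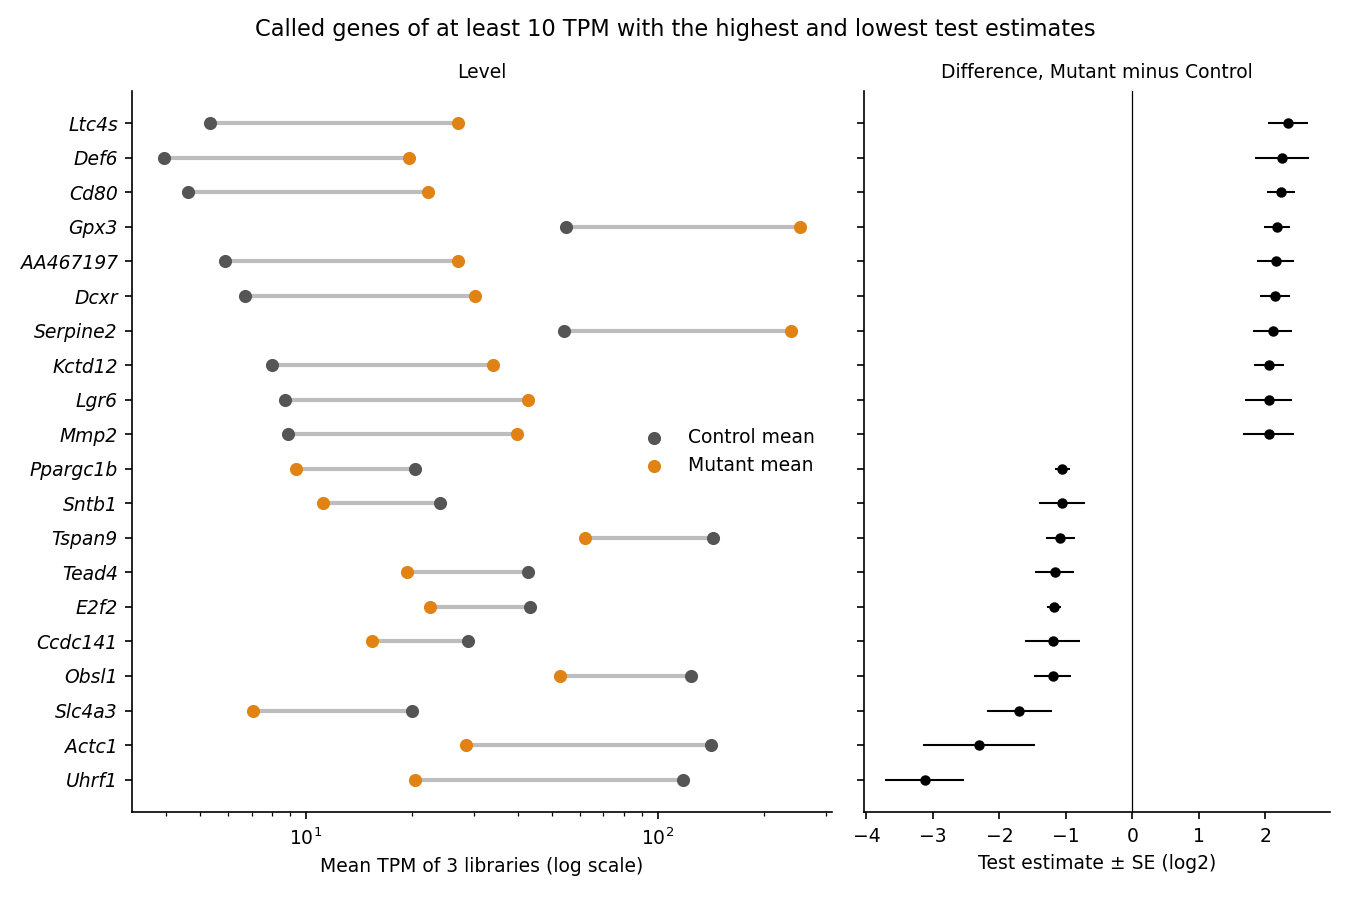
Mean TPM (left, log scale, grey for Control and orange for Mutant) and estimate with its SE (right, log2) of the 20 called genes of at least 10 TPM with the highest and lowest estimates. Uhrf1 and Actc1 fell farthest, and Actc1 has the widest SE (0.84).

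The cells carried the markers of activated satellite cells in both groups. All 10 satellite cell and myoblast markers were above 1 TPM and summed to 3566 TPM in Control and 3243 TPM in Mutant per the authors' deposited table. Pax7, the lineage factor of satellite cells, rose from 23.1 TPM to 29.6 TPM (estimate 0.35, SE 0.08, adjusted p = 0.000305), and Myod1 fell from 1018 TPM to 914 TPM (estimate −0.17, SE 0.05, adjusted p = 0.00524). Markers of other cells were also present. Macrophage and leukocyte markers summed to 34.5 TPM in Control and 115 TPM in Mutant, of which Laptm5 made up 25.1 and 84.8 TPM. Of the 4 above 1 TPM, 2 rose, Laptm5 and Cd68 (from 3.46 TPM to 6.27 TPM), and 0 fell, while Fcer1g (3.22 and 19.3 TPM) and Cd14 (1.70 and 3.39 TPM) had higher means in Mutant and were not called. Below 1 TPM, the pan-leukocyte gene Ptprc was at 0.381 and 0.303 TPM and Csf1r at 0.156 and 0.430 TPM, and 1 of the 2 entries of Itgam was listed at 0 in Mutant. Endothelial markers summed to 21.2 and 15.2 TPM. Of 6 tested, all below 10 TPM, 1 rose and 2 fell, and 5 had a lower mean in Mutant. Fibroblast markers summed to 248 and 259 TPM with 0 of 7 tested members called (2 passed an unadjusted p of 0.05). Smooth muscle and pericyte markers summed to 1230.0 and 1381 TPM, most of it desmin and Acta2, and 3 of 7 rose: Rgs5 (from 0.359 TPM to 2.93 TPM), Notch3 and desmin. Desmin is also one of the satellite cell and myoblast markers. Schwann cell markers summed to 12.8 and 20.6 TPM, with 2 of 4 higher, Ngfr (from 2.86 TPM to 9.84 TPM) and Mbp; adipocyte markers to 17.1 and 16.1 TPM and erythroid markers to 3.59 and 3.46 TPM, with Hbb-bs listed at 0 in Control and Hba-a2 at 0 in Mutant. Ddx3y, on the Y chromosome, was at 27.3 and 26.3 TPM and was not called.

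To read the transcriptome by function, the tested genes were sorted into 115 lists of pathways and families, which covered 1499 of the 3765 called genes and left 2266 in no list. Beside the shares of all genes, 14.3% higher and 13.4% lower, each list has a share of all genes at the same levels, which weights the 3 level classes by the list's own number of genes in each. That share lay between 11.9% and 15.8% for higher calls in every list, and between 2.29% and 36.2% for lower calls. The lists split into those where almost all calls were lower, those where almost all were higher, and mixed ones. Replication, mitosis, nuclear transport, ribosome biogenesis, splicing and the citric acid cycle were at the lower end. Targets of p53, MHC class I, lysosome and TGF-β genes were at the higher end. Hippo, IGF, hedgehog, Notch and collagen genes were among the mixed ones. Where a list has 0 calls in one direction, between 0 and 3 of its members passed an unadjusted p of 0.05 in that direction in the authors' DESeq2 test. In any list, a member below 1 TPM in one group can pass the minimum through its mean in the other.

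**Figure D3:**
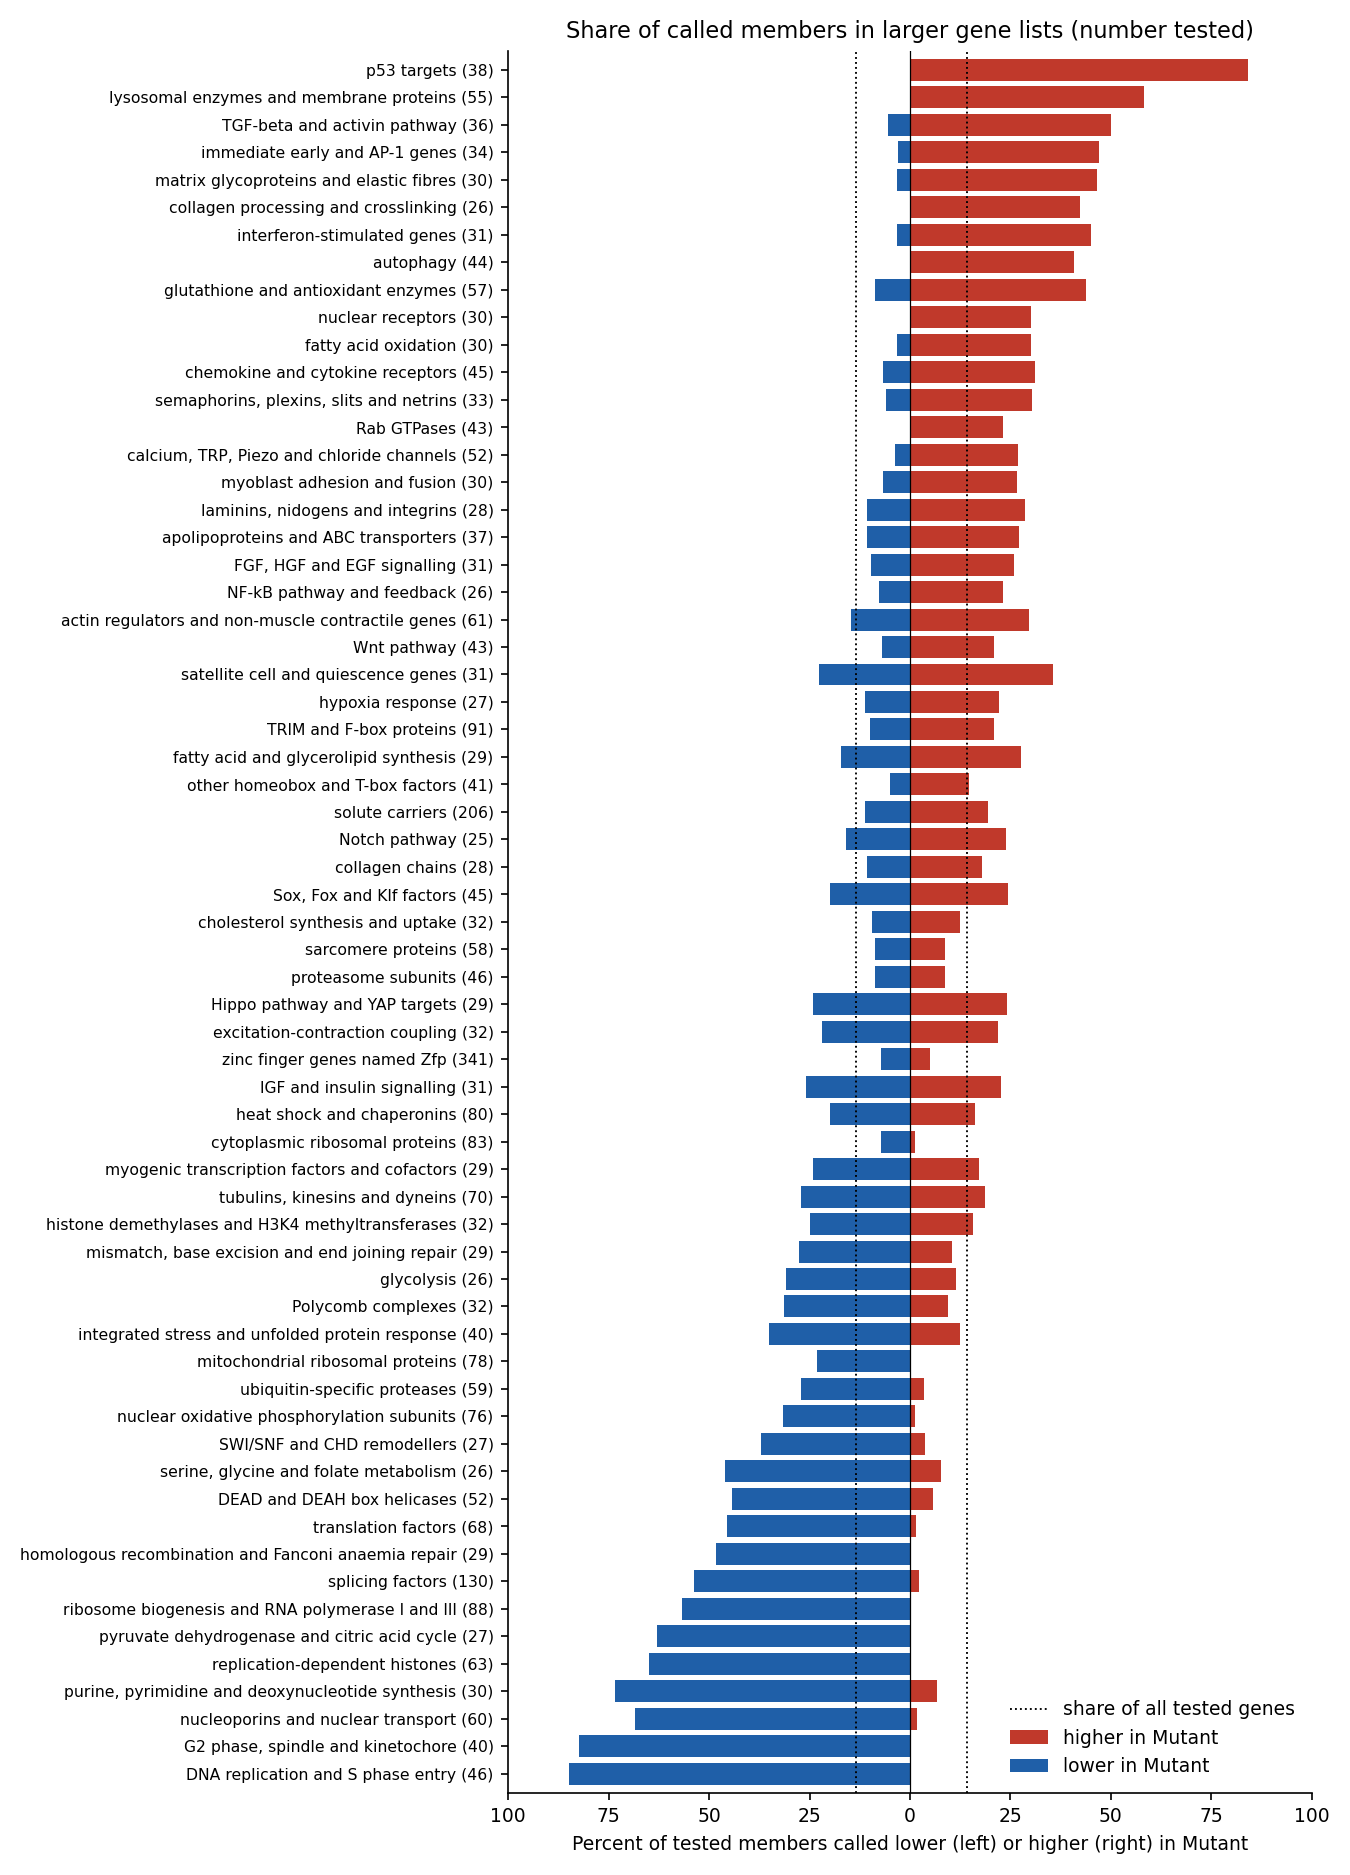
Share of the tested members of each list called higher (red, right) or lower (blue, left) in Mutant, for larger lists, each with at least 25 tested members, with the number tested in brackets and the share of all genes as dotted lines. DNA replication, mitosis and nuclear transport lie at one end and p53 targets and lysosome genes at the other, while cytoplasmic ribosomal proteins and proteasome subunits show few calls.

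DNA replication genes fell the most uniformly. Of 46 tested genes of replication and S phase entry, 39 fell and 0 rose (median log2 ratio −0.41, against 0.00 over all genes), where 18.1% of genes at the same levels fell. E2f2, a transcription factor that opens S phase, fell from 43.4 TPM to 22.5 TPM (estimate −1.18, SE 0.10, adjusted p = 1.87e-27), and Pcna, the sliding clamp, fell from 400.2 TPM to 292 TPM (estimate −0.45, SE 0.06, adjusted p = 2.47e-11). The E cyclins that start S phase fell by similar amounts, Ccne1 from 59.1 TPM to 37.2 TPM and Ccne2 from 55.0 TPM to 33.3 TPM. Of 40 genes of G2 phase, spindle and kinetochore, 33 fell and 0 rose (median −0.36), against 23.9% lower at the same levels. Ccna2, cyclin A2, fell from 178 TPM to 109 TPM (estimate −0.69, SE 0.07, adjusted p = 1.14e-20), and Cdk1, the mitotic kinase, fell from 357 TPM to 242 TPM (estimate −0.61, SE 0.07, adjusted p = 1.81e-16). Of 21 cohesin and condensin genes, 17 fell, 81.0% against 19.7% at the same levels. They were led by the condensin II subunit Ncapd3 (estimate −0.56, SE 0.09) and the cohesin acetyltransferase Esco2 (estimate −0.52, SE 0.12).

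Replication-dependent histones, made in S phase, had the lowest median of the 115 lists, and their summed level was 30191 TPM in Control and 19306 TPM in Mutant. Of 63 tested genes, 41 fell and 0 rose (median −0.61), 65.1% lower against 30.5% at the same levels. Hist2h2bb fell from 2504 TPM to 1557 TPM (estimate −0.69, SE 0.06, adjusted p = 1.19e-32). Many of these genes have nearly the same sequence, and single values are uncertain where counting divided reads between them. Of 13 replication-independent histone genes, 5 fell, among them H2afz (from 1154 TPM to 807 TPM) and H2afx (from 232 TPM to 148 TPM), and H2afj alone rose (from 31.6 TPM to 51.1 TPM).

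Promoters of a pair of these groups are printed to show the letters searched. In the RefSeq promoter table (GRCm38.p6), 37 of the 46 replication genes and 32 of the 40 mitosis genes had a promoter, and the 250 bases before the start were searched on both strands. An E2F motif (TTTGGCGC, TTTCCCGC, TTTCGCGC or TTTGCCGC) stood in 27.0% of the replication promoters and 3.13% of the mitosis promoters, against 2.16% of all 27025 promoters of the table. The cell cycle homology region (TTTGAA), a motif of G2 and mitosis genes, stood in 21.6% of replication and 37.5% of mitosis promoters, against 18.3% of all. It was more frequent still in the replication histones, 45.6% of 57 promoters. The CCAAT box stood in 67.6% and 71.9%, against 37.5% of all, 82.5% of the histones and 73.7% of 19 MHC class I pathway genes, which rose. The promoters of Mcm6, a subunit of the replicative helicase, and Cdk1 are the most abundant examples whose match lies outside annotated exons. Capitals mark the E2F matches in Mcm6 and the TTTGAA match in Cdk1. The Cdk1 stretch also holds the E2F letters TTTCGCGC, which were left in lower case.
Mcm6, chr1:128359706-128359955, minus strand, GRCm38: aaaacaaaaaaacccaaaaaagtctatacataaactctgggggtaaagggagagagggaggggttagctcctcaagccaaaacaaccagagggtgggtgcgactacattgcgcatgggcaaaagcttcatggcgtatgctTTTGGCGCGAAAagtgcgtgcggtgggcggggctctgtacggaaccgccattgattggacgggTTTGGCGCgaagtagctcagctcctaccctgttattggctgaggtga
Cdk1, chr10:69352939-69353162, minus strand, GRCm38: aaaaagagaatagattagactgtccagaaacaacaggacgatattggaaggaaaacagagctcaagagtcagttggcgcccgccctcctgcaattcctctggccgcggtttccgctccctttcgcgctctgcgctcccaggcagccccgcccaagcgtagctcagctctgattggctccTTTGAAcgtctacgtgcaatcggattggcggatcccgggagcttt
The match nearest to the Mcm6 start begins 47 bases before it and the Cdk1 match 71 bases before its start. Mcm6 fell from 176 TPM to 127 TPM (estimate −0.45, SE 0.07, adjusted p = 8.11e-10). A match is a description of the letters and not a bound site.

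Genes that feed and guard replication followed in part. Of 30 genes of nucleotide synthesis, 22 fell and 2 rose per the authors' deposited table (median −0.29), 73.3% lower against 25.3% at the same levels. Shmt1, which supplies folate units for thymidylate, fell from 68.2 TPM to 36.1 TPM (estimate −0.82, SE 0.09, adjusted p = 7.12e-19), and the thymidine kinase Tk1 fell from 130.4 TPM to 89.3 TPM. The 2 that rose were Rrm2b, the p53-responsive ribonucleotide reductase subunit (estimate 0.38, SE 0.14), and Prps2 (estimate 0.23, SE 0.08). Of 29 genes of homologous recombination and Fanconi anaemia repair, 14 fell and 0 rose, with the helicase Blm lowest (estimate −0.70, SE 0.10). Of 17 checkpoint genes, 9 fell, including the kinase Chek1 (estimate −0.57, SE 0.11). Other repair genes went both ways, with 3 higher and 8 lower of 29. Ercc5, an excision repair nuclease, rose from 16.4 TPM to 31.2 TPM (estimate 0.85, SE 0.10, adjusted p = 3.51e-15), and the uracil glycosylase Ung fell from 17.3 TPM to 10.2 TPM (estimate −0.85, SE 0.15, adjusted p = 5.51e-07).

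Chromatin lists differed in how many members fell. Of 23 genes of DNA methylation and its readers, 11 fell, Uhrf1 included, and 2 rose per the authors' deposited table, 47.8% lower against 16.1% at the same levels. Tet3, a methylcytosine dioxygenase, fell from 18.0 TPM to 11.1 TPM (estimate −0.71, SE 0.08, adjusted p = 2.18e-16), whereas the methyl-CpG binding zinc finger genes Zbtb38 and Zbtb4 rose, from 65.1 TPM to 114 TPM and from 5.05 TPM to 10.1 TPM. Of 24 genes of H3K9 methylation and heterochromatin, 9 fell and 1 rose (37.5% lower against 17.2%). The heterochromatin proteins Cbx1 (estimate −0.48, SE 0.07) and Cbx5 (estimate −0.35, SE 0.05), the methyltransferase Suv39h1 (estimate −0.36, SE 0.07) and the retroelement corepressor Trim28 (estimate −0.32, SE 0.05) were among those that fell. Of 32 Polycomb genes, 10 fell and 3 rose, 31.3% lower against 15.8% at the same levels. Cbx2 was lowest (estimate −0.63, SE 0.14) and Suz12 fell from 88.1 TPM to 67.4 TPM. SWI/SNF and CHD remodellers had 10 lower and 1 higher of 27, and the exception was the ATPase Smarca2, which rose from 20.2 TPM to 31.1 TPM (estimate 0.92, SE 0.10, adjusted p = 1.55e-16). Histone demethylases and H3K4 methyltransferases were mixed, 5 higher and 8 lower of 32 (median 0.01). Histone deacetylases and sirtuins were nearly silent in the test, with 1 lower and 0 higher of 17; the member that fell was Sirt1 (estimate −0.30, SE 0.09). Of 341 zinc finger genes named Zfp, 17 rose and 25 fell, 4.99% and 7.33%, against 13.5% and 7.96% at the same levels.

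RNA processing and transport genes fell broadly by small amounts. Of 130 splicing factors, 70 fell and 3 rose per the authors' deposited table (median −0.21), 53.8% lower against 23.7% at the same levels. Rbm24, a muscle splicing regulator, fell from 171 TPM to 114 TPM (estimate −0.62, SE 0.14, adjusted p = 0.000161), Ptbp2 fell from 57.8 TPM to 39.8 TPM (estimate −0.57, SE 0.09, adjusted p = 3.42e-09), and the abundant Hnrnpk fell from 1388 TPM to 1237 TPM (estimate −0.17, SE 0.04, adjusted p = 0.000643). The 3 that rose were Celf5, Rbm43 and Celf4, and Celf5 went from 0.926 TPM to 4.05 TPM (estimate 2.18, SE 0.33, adjusted p = 1.69e-09). Of 60 nucleoporin and nuclear transport genes, 41 fell and 1 rose (median −0.21), 68.3% lower against 20.7%. The pore protein Nup210 fell from 11.6 TPM to 6.67 TPM (estimate −0.97, SE 0.13, adjusted p = 6.73e-12), Nup62 fell from 143 TPM to 102 TPM (estimate −0.51, SE 0.06, adjusted p = 3.19e-16), and Ran, the GTPase that drives transport, fell from 635 TPM to 534 TPM. DEAD and DEAH box helicases had 23 lower and 3 higher of 52; Ddx39b, an mRNA export helicase, fell from 322 TPM to 241 TPM (estimate −0.42, SE 0.05, adjusted p = 2.13e-14), and the RNA sensor Ddx58 rose from 6.56 TPM to 10.4 TPM (estimate 1.09, SE 0.26, adjusted p = 0.000494).

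Ribosome assembly genes fell often and cytoplasmic ribosomal proteins seldom. Of 88 genes of ribosome biogenesis and RNA polymerases I and III, 50 fell and 0 rose (median −0.23), 56.8% lower against 22.2% at the same levels. Npm1, nucleophosmin, fell from 2096 TPM to 1679.5 TPM (estimate −0.33, SE 0.05, adjusted p = 4.77e-09), the pseudouridine synthase Dkc1 fell from 238 TPM to 173 TPM (estimate −0.48, SE 0.06, adjusted p = 3.84e-13), and Rrp9 was lowest (estimate −0.50, SE 0.08). Cytoplasmic ribosomal proteins had a median of 0.00, with 6 lower and 1 higher of 83, 7.23% lower against 36.2%, and summed to 136906 TPM in Control and 137076 TPM in Mutant. The member that rose was Rps27l, a p53-responsive paralog of Rps27 (from 707 TPM to 898 TPM; estimate 0.34, SE 0.06, adjusted p = 7.29e-07). Of 68 translation factors, 31 fell and 1, the stress kinase Eif2ak3, rose, 45.6% lower against 26.7% at the same levels. The cap-binding protein Eif4e was at 298 and 231 TPM (estimate −0.41, SE 0.05, adjusted p = 1.46e-12), while the most abundant, Eef1a1, was not called (7964 and 8205 TPM, estimate 0.05, SE 0.05, adjusted p = 0.708). Of 22 cytoplasmic tRNA synthetases, 9 fell and 1 rose, 40.9% lower against 27.8% at the same levels. Proteasome subunits had 4 higher and 4 lower of 46, 8.7% lower against 29.0%, and those that rose most were the immunoproteasome subunits Psmb8 and Psmb9.

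Among mitochondrial lists, the citric acid cycle had the largest share of lower calls. Of 27 genes of pyruvate dehydrogenase and the citric acid cycle, 17 fell and 0 rose (median −0.17) per the authors' deposited table, 63.0% lower against 29.4% at the same levels. Idh3a, a catalytic subunit of isocitrate dehydrogenase, fell from 225 TPM to 153 TPM (estimate −0.60, SE 0.06, adjusted p = 3.41e-22), Idh2 fell from 187 TPM to 129 TPM (estimate −0.53, SE 0.06, adjusted p = 4.64e-17), and the succinate dehydrogenase subunit Sdhd fell from 260.2 TPM to 195 TPM (estimate −0.43, SE 0.06, adjusted p = 3.81e-12). Of 76 nuclear subunits of oxidative phosphorylation, 24 fell and 1 rose (median −0.11); the share lower, 31.6%, was near the 31.7% at the same levels. The list was led by Atp5g2 (estimate −0.65, SE 0.24) and Cyc1 (estimate −0.48, SE 0.06); the exception, Cox6b2, rose from 2.88 TPM to 8.85 TPM. Mitochondrial ribosomal proteins had 18 lower and 0 higher of 78, 23.1% against 19.8%, and Mrpl12 fell from 163 TPM to 108 TPM (estimate −0.60, SE 0.08, adjusted p = 1.03e-10). Of 13 transcripts of the mitochondrial genome, 3 fell and 0 rose, 23.1% lower against 34.6%; mt-Nd1 fell from 1859 TPM to 1329 TPM (estimate −0.50, SE 0.16, adjusted p = 0.0112), and the list summed to 21213 and 16974 TPM with a median SE of 0.21.

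Serine and one-carbon genes also had many lower calls. Of 26 genes of serine, glycine and folate metabolism, 12 fell and 2 rose, 46.2% lower against 18.7% at the same levels. Phgdh, the first enzyme of serine synthesis, fell from 379 TPM to 278 TPM (estimate −0.46, SE 0.05, adjusted p = 9.22e-15), Psat1, the second, fell from 271 TPM to 187 TPM (estimate −0.58, SE 0.06, adjusted p = 5.12e-23), and the mitochondrial folate enzyme Mthfd2 fell from 164 TPM to 117 TPM (estimate −0.56, SE 0.06, adjusted p = 5.16e-19). The folate dehydrogenase Aldh1l1 went the other way, from 0.236 TPM to 2.21 TPM (estimate 3.57, SE 0.75, adjusted p = 3.02e-05). Of 40 genes of the integrated stress and unfolded protein responses, 14 fell and 5 rose, 35.0% lower against 23.1%. The Atf4 targets Chac1 (estimate −0.86, SE 0.15) and Pck2 (estimate −0.60, SE 0.09) fell, and the stress sensors Ern1 (estimate 0.76, SE 0.10) and Eif2ak3 (estimate 0.48, SE 0.12) rose. Glycolysis had 8 lower and 3 higher of 26, 30.8% lower against 22.9%; Gapdh fell from 3021 TPM to 2728 TPM (estimate −0.18, SE 0.04, adjusted p = 0.000286), and the hexokinase Hk1 rose from 105 TPM to 141 TPM (estimate 0.43, SE 0.06, adjusted p = 2.3e-10).

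Targets of p53 had the largest share of higher calls of the 115 lists. Of 38 tested, 32 rose and 0 fell (median 0.75), 84.2% higher against 15% at the same levels. Mdm2, the ligase that degrades p53, rose from 154 TPM to 346 TPM, and cyclin G1 (Ccng1) from 158 TPM to 384 TPM; Cdkn1a, the kinase inhibitor p21, rose from 474 TPM to 726 TPM (estimate 0.54, SE 0.13, adjusted p = 0.000597). Death genes rose in part. Of 16 BCL2 family genes, 6 rose and 1 fell: the BH3-only genes Pmaip1 (from 8.98 TPM to 28 TPM; estimate 1.62, SE 0.12, adjusted p = 3.34e-37), Bbc3 (from 13.9 TPM to 20.2 TPM) and Bmf (from 0.937 TPM to 1.74 TPM) were higher, and Bok fell from 58.3 TPM to 41.5 TPM. Of 23 death receptor and caspase genes, 9 rose and 0 fell. The receptor Fas rose from 1.70 TPM to 6.19 TPM (estimate 1.90, SE 0.38, adjusted p = 1.17e-05), and Mlkl, the effector of necroptosis, rose from 14.4 TPM to 23.7 TPM (estimate 0.73, SE 0.13, adjusted p = 9.56e-07).

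Lysosome genes rose with no member called lower. Lysosomes are the acidic organelles that degrade material delivered by endocytosis and autophagy. Of 55 genes for lysosomal enzymes and membrane proteins, 32 rose and 0 fell per the authors' deposited table (median 0.33), 58.2% higher against 14.5% at the same levels. The protease cathepsin D (Ctsd) rose from 316 TPM to 520.4 TPM (estimate 0.70, SE 0.07, adjusted p = 1.18e-21), the cholesterol carrier Npc2 rose from 74.1 TPM to 117 TPM (estimate 0.67, SE 0.08, adjusted p = 8.89e-14), and prosaposin (Psap) rose from 224 TPM to 282 TPM (estimate 0.32, SE 0.05, adjusted p = 5.49e-10). Cd63, the most abundant member, was not called (1466 and 1447 TPM, estimate −0.01, SE 0.04, adjusted p = 0.926). Of 44 autophagy genes, 18 rose and 0 fell. Sqstm1, the cargo receptor p62, rose from 334 TPM to 489 TPM (estimate 0.56, SE 0.06, adjusted p = 6.89e-16), the p53-responsive Trp53inp1 from 18.2 TPM to 64.9 TPM (estimate 1.94, SE 0.18, adjusted p = 3.11e-25), and Wdr45, which acts early in autophagosome formation, from 12.3 TPM to 24.2 TPM (estimate 1.12, SE 0.18, adjusted p = 1.25e-08). Of 18 subunits of the vacuolar proton pump, 5 rose and 0 fell, among them Atp6v1g1 (from 216 TPM to 318 TPM). Cathepsins and cystatins had 9 higher and 0 lower of 14. Laptm5, also a macrophage marker, had the highest estimate of the lysosome list (estimate 1.75, SE 0.62, adjusted p = 0.0314). Macrophages are rich in lysosomes, and the summed macrophage markers given above moved in the same direction, from 34.5 to 115 TPM. Most of that sum is Laptm5, which belongs to both lists. All 4 markers above 1 TPM had a higher mean in Mutant, while the pan-leukocyte gene Ptprc, below 1 TPM, had a lower one. The part of macrophages in the lysosome result was not tested.

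The promoter of Lamp1, a major lysosomal membrane protein, shows the E-box CACGTG that MiT/TFE factors of lysosome genes recognise. Of 55 lysosome genes, 45 had a promoter, and 28.9% of them held CACGTG in the 250 bases before the start, against 6.86% of all promoters. Other lists lay between these: 17.2% of 29 p53 target promoters, 16.2% of the replication, 15.8% of the MHC class I and 11.2% of 107 splicing promoters held it. The longer TCACGTGA, which contains it, stood in 11.1%, against 0.907%. The Lamp1 promoter is printed with its 4 matches in capitals.
Lamp1, chr8:13158911-13159160, plus strand, GRCm38: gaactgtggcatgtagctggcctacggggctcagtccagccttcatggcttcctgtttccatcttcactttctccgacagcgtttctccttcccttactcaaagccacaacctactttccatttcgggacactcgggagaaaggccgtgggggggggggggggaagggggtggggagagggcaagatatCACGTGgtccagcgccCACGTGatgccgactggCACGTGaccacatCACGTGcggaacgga
The matches begin between 61 and 15 bases before the start. Lamp1 rose from 229 TPM to 281 TPM (estimate 0.28, SE 0.06, adjusted p = 5.66e-05).

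Antigen presentation genes rose as well. MHC class I molecules carry peptides, cut by the immunoproteasome and pumped by Tap1 and Tap2, to the cell surface together with B2m. Of 23 genes of this pathway, 15 rose and 0 fell (median 0.55), 12 of 15 among those of at least 10 TPM, in the authors' deposited table. The share higher was 65.2%, against 14.3% at the same levels. Psmb8 rose from 4.34 TPM to 14.6 TPM (estimate 1.58, SE 0.27, adjusted p = 1.05e-07), Psmb9 from 1.79 TPM to 4.17 TPM (estimate 1.49, SE 0.40, adjusted p = 0.00202), and Nlrc5, the transactivator of MHC class I genes, from 0.443 TPM to 1.68 TPM (estimate 1.59, SE 0.47, adjusted p = 0.00689). The transporter Tap1 rose from 10.9 TPM to 27.6 TPM, the heavy chains H2-K1 and H2-D1 from 38.1 TPM to 59.2 TPM and from 60.1 TPM to 92.9 TPM, and B2m from 118 TPM to 174 TPM (estimate 0.55, SE 0.10, adjusted p = 5.95e-07). The heavy chain genes resemble each other, and their single values are uncertain for the same reason. Calreticulin (Calr), the most abundant member and a general chaperone, was not called (748 and 802 TPM, estimate 0.07, SE 0.05, adjusted p = 0.374). Of 31 interferon-stimulated genes above 1 TPM, 14 rose and 1 fell, and 19 further members of the list lay below 1 TPM. Members such as Oasl1 and Isg15 were below 1 TPM in Control and passed the minimum through their Mutant mean, so this count carries no weight. Of the 7 of at least 10 TPM, 3 rose and 0 fell. Oasl1 rose from 0.515 TPM to 4.21 TPM (estimate 3.43, SE 0.48, adjusted p = 7e-11), Isg15 from 0.850 TPM to 4.72 TPM (estimate 2.51, SE 0.67, adjusted p = 0.00204), and Ifitm3, a membrane restriction factor, from 62.5 TPM to 169 TPM (estimate 1.42, SE 0.12, adjusted p = 7.1e-30), while Ifit2 fell from 9.94 TPM to 7.24 TPM (estimate −0.46, SE 0.15, adjusted p = 0.016). Among the sensors of viral nucleic acids, 4 rose and 1 fell of 17, 23.5% higher against 13.8% at the same levels. The RNA sensors Ifih1 (from 1.45 TPM to 3.16 TPM) and Ddx58 and the adaptor Tmem173 (from 10.8 TPM to 18.1 TPM) rose, and the DNA sensor Mb21d1 fell (from 5.27 TPM to 3.01 TPM). IAPEz-int, given above, was high in the library labelled Control 3 as well as in the Mutant libraries, so Control means of these genes include a library with high endogenous retrovirus counts. The summed macrophage markers moved with these genes too, and neither part was tested.

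The B2m promoter shows a match to the interferon-stimulated response element (GAAA and GAAA with any 2 bases between). Of 23 class I pathway genes, 19 had a promoter, and 3 of the 19 (15.8%) held it, against 3.46% of all promoters. Among replication promoters 8.11% held it, and the shares of mitosis, lysosome, histone, splicing and p53 target promoters lay between 2.22% and 3.74%. The match in B2m, in capitals, begins 139 bases before the start.
B2m, chr2:122147437-122147685, plus strand, GRCm38: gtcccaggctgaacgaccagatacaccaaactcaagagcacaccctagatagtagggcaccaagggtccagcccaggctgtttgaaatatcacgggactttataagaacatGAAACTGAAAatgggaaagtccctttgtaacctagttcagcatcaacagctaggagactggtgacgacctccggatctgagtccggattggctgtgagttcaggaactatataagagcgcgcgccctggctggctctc
The base next to the start is left out because the annotation places an exon there.

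Glutathione and fatty acid oxidation genes had more higher than lower calls. Lipid synthesis genes were called in both directions, and smaller shares of the cholesterol and metal lists were called. Of 57 glutathione and antioxidant genes, 25 rose and 5 fell per the authors' deposited table, 43.9% higher against 14.5% at the same levels. After Gpx3, whose values are given above, the transferases Gstt3 (from 2.91 TPM to 5.17 TPM) and Mgst1 (from 10.9 TPM to 24.4 TPM) had the highest estimates, while the mitochondrial dismutase Sod2 fell from 43.5 TPM to 33.8 TPM (estimate −0.38, SE 0.07, adjusted p = 6.88e-07). Of 30 fatty acid oxidation genes, 9 rose and 1 fell. Cpt1c, a carnitine palmitoyltransferase isoform, rose from 7.04 TPM to 27.1 TPM (estimate 1.88, SE 0.15, adjusted p = 6.12e-33), Ucp2, an uncoupling protein, from 9.92 TPM to 27.3 TPM, and the fatty acid binding protein Fabp5 fell from 171 TPM to 111 TPM (estimate −0.66, SE 0.08, adjusted p = 3.54e-15). In fatty acid and glycerolipid synthesis, 8 rose and 5 fell of 29: Lpin1 rose from 3.20 TPM to 9.31 TPM (estimate 1.87, SE 0.17, adjusted p = 4.63e-25) and the lipid droplet coat Plin2 rose from 121 TPM to 243 TPM (estimate 0.94, SE 0.15, adjusted p = 1.2e-08), while Fasn, fatty acid synthase, fell from 105 TPM to 86.0 TPM (estimate −0.31, SE 0.07, adjusted p = 0.000262). Cholesterol genes had 4 higher and 3 lower of 32, near the shares of all genes; the cholesterol exporter Abca1 rose from 0.937 TPM to 3.77 TPM (estimate 1.8, SE 0.17, adjusted p = 3.98e-24). Iron genes had 4 higher and 1 lower of 20, and 1 and 1 among those of at least 10 TPM: Tfrc, which imports iron, fell from 199 TPM to 149.7 TPM (estimate −0.49, SE 0.05, adjusted p = 5.68e-23), and Slc40a1, which exports it, rose from 1.41 TPM to 3.58 TPM (estimate 1.74, SE 0.30, adjusted p = 1.79e-07). Zinc and metallothionein genes had 3 higher of 21, 14.3%, the share of all genes. Of 206 solute carriers, 40 rose and 23 fell, 19.4% and 11.2%.

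TGF-β genes and several matrix lists had more higher than lower calls. TGF-β, activins and BMPs signal through paired receptor kinases to Smad factors and drive matrix synthesis in many tissues. Of 36 genes of the TGF-β and activin pathway, 18 rose and 2 fell (median 0.27) in the authors' deposited table, 50% higher against 15.1% at the same levels. The type I receptor Acvrl1 rose from 7.04 TPM to 23 TPM (estimate 1.92, SE 0.33, adjusted p = 2.96e-07), its coreceptor endoglin (Eng) from 9.14 TPM to 21.9 TPM (estimate 1.20, SE 0.31, adjusted p = 0.00124), and betaglycan (Tgfbr3) from 5.09 TPM to 8.84 TPM (estimate 0.86, SE 0.15, adjusted p = 2.01e-07); the activin receptor Acvr2b fell from 5.34 TPM to 3.22 TPM (estimate −0.93, SE 0.26, adjusted p = 0.00327). Of 21 BMP pathway genes, 8 rose and 0 fell, including the target Id3 (from 466 TPM to 542 TPM; estimate 0.22, SE 0.05, adjusted p = 0.000523) and the inhibitor Smad6 (from 17.2 TPM to 24.3 TPM). Matrix glycoproteins had 14 higher and 1 lower of 30. Ecm1 rose from 38.6 TPM to 147 TPM (estimate 2.04, SE 0.36, adjusted p = 2.89e-07), thrombospondin 2 (Thbs2) from 22.5 TPM to 92.2 TPM (estimate 2.02, SE 0.31, adjusted p = 5.07e-09), and tenascin C (Tnc) from 22.4 TPM to 56.4 TPM (estimate 1.34, SE 0.34, adjusted p = 0.00103), whereas Thbs1, the most abundant member, was not called (1367 and 1235 TPM, estimate −0.16, SE 0.06, adjusted p = 0.0678). Of 26 collagen processing genes, 11 rose and 0 fell, with the lysyl hydroxylase Plod2 highest (from 39.4 TPM to 73.7 TPM; estimate 0.95, SE 0.08, adjusted p = 1.35e-26).

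Collagen chains themselves were mixed, 5 higher and 3 lower of 28. The basement membrane collagen Col18a1 rose from 19.9 TPM to 73.8 TPM (estimate 1.89, SE 0.28, adjusted p = 3.42e-10), and the fibrillar chain Col1a2 fell from 51.3 TPM to 31.9 TPM (estimate −0.70, SE 0.23, adjusted p = 0.0154). Of 23 proteoglycans, 9 rose and 3 fell: Srgn rose from 1.72 TPM to 11 TPM (estimate 2.63, SE 0.43, adjusted p = 3.64e-08), fibromodulin (Fmod) from 0.864 TPM to 4.27 TPM (estimate 2.21, SE 0.36, adjusted p = 4.57e-08), and the hyaluronan synthase Has2 fell from 11.7 TPM to 6.42 TPM (estimate −0.87, SE 0.16, adjusted p = 2.71e-06). Srgn is also abundant in leukocytes. Among metalloproteinases and their inhibitors, 6 rose and 1 fell of 10; Mmp2 rose from 8.91 TPM to 39.7 TPM (estimate 2.05, SE 0.38, adjusted p = 1.63e-06) and Mmp15 fell from 22.2 TPM to 14 TPM (estimate −0.70, SE 0.11, adjusted p = 3.88e-09). The basement membrane linker Nid1 rose from 20.5 TPM to 44.9 TPM (estimate 1.11, SE 0.31, adjusted p = 0.00306), and the integrin chain Itga7 of muscle cells fell from 355 TPM to 305 TPM (estimate −0.23, SE 0.06, adjusted p = 0.00074). Beside these values, the fibroblast markers summed to 248 and 259 TPM, and the smooth muscle and pericyte markers, with 3 of 7 higher, to 1230.0 and 1381 TPM. Desmin, among those 3, is also a satellite cell and myoblast marker. The part of fibroblasts, smooth muscle cells and pericytes in the result was not tested.

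Receptors and ligands of other pathways changed singly. Cyp26b1, the enzyme that clears retinoic acid, had the smallest adjusted p of the authors' deposited table and rose from 15.9 TPM to 50.0 TPM (estimate 1.63, SE 0.09, adjusted p = 6.82e-72). Of 14 retinoic acid genes, 6 rose and 0 fell, and of the 7 of at least 10 TPM, 3 rose and 0 fell. The dehydrogenase Dhrs3 rose from 2.99 TPM to 8.86 TPM (estimate 1.59, SE 0.30, adjusted p = 3.91e-06). The synthetic enzyme Aldh1a2 rose from 0.684 TPM to 2.11 TPM (estimate 1.64, SE 0.54, adjusted p = 0.0169). Aldh1a2 passed the minimum through its Mutant mean, so the count over all 14 carries no weight. The vitamin K-dependent ligands Gas6 and Pros1 of the TAM receptors rose, Gas6 from 84.3 TPM to 189.9 TPM (estimate 1.16, SE 0.21, adjusted p = 8.73e-07) and Pros1 from 7.81 TPM to 15.5 TPM (estimate 1.14, SE 0.14, adjusted p = 4.15e-14), while the receptors Axl (418 and 373 TPM, estimate −0.14, SE 0.06, adjusted p = 0.0729) and Tyro3 (4.49 and 6.22 TPM, estimate 0.32, SE 0.18, adjusted p = 0.26) were not called. In the Wnt list 9 rose and 3 fell of 43, with Lgr6 (from 8.71 TPM to 42.7 TPM; estimate 2.05, SE 0.35, adjusted p = 1.65e-07) and the ligand Wnt7b (from 4.34 TPM to 10.3 TPM; estimate 1.22, SE 0.22, adjusted p = 4.18e-07) higher and the receptor Fzd2 lower (from 17.8 TPM to 12.9 TPM; estimate −0.48, SE 0.12, adjusted p = 0.000843). In the Notch list 6 rose and 4 fell of 25; Notch3 rose from 18.3 TPM to 31.4 TPM (estimate 0.77, SE 0.06, adjusted p = 8.62e-34) and its effector Hey1 from 6.09 TPM to 10.4 TPM, and the ligand Dll1 and the nuclear partner Rbpj fell, from 48.6 TPM to 40.6 TPM and from 118 TPM to 95.6 TPM. Notch1 is counted among those that fell by a log2 ratio of −0.02, although its estimate was 0.45 (SE 0.08). IGF and insulin genes had 7 higher and 8 lower of 31: the binding proteins Igfbp5 (from 36.3 TPM to 83.9 TPM) and Igfbp4 (from 15.4 TPM to 31.4 TPM) rose, Igfbp3 fell (from 28.3 TPM to 19.6 TPM), and Igf2 was not called (762 and 478 TPM, estimate −0.67, SE 0.31, adjusted p = 0.129).

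Hormone and clock lists had more higher than lower calls. Of 17 clock genes, 7 rose and 0 fell per the authors' deposited table, with Bhlhe40 (from 21 TPM to 42.7 TPM; estimate 1.16, SE 0.10, adjusted p = 4.85e-28) and Nr1d1 (from 8.87 TPM to 16.7 TPM; estimate 0.87, SE 0.14, adjusted p = 7.74e-09) among them. Of 14 glucocorticoid response genes, 7 rose and 1 fell; Ddit4, an inhibitor of mTORC1 that is also responsive to p53 and hypoxia, rose from 15.8 TPM to 45.8 TPM (estimate 1.51, SE 0.14, adjusted p = 1.38e-23), and Fkbp5 fell from 86.5 TPM to 72.4 TPM (estimate −0.22, SE 0.06, adjusted p = 0.00308). Of 11 oestrogen receptor genes and targets, 6 rose and 1 fell, among them the receptor Esr1 (from 28.8 TPM to 39.2 TPM; estimate 0.78, SE 0.10, adjusted p = 2.07e-13) and its target Igfbp4. Tamoxifen is an oestrogen receptor ligand given only to the Mutant of these groups, so its part in these values cannot be told apart from that of Uhrf1. Of 34 immediate early genes, 16 rose and 1 fell; Btg2 rose from 14.3 TPM to 44.2 TPM (estimate 1.61, SE 0.27, adjusted p = 6.12e-08), Egr3 from 1.28 TPM to 1.95 TPM (estimate 1.34, SE 0.34, adjusted p = 0.000964), and Srf fell from 52.6 TPM to 44.8 TPM (estimate −0.25, SE 0.07, adjusted p = 0.00261). In the Myc network, Mxd4, a repressor that competes with Myc for Max, rose from 11.4 TPM to 37.3 TPM (estimate 1.68, SE 0.10, adjusted p = 3.4e-58), and Myc was not called (88.6 and 80.4 TPM, estimate −0.13, SE 0.09, adjusted p = 0.453).

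Cytoskeleton genes split by function. The nuclear lamina genes Lmnb1 and Lmnb2 and the lamin B receptor Lbr fell, from 146 TPM to 97.3 TPM, from 107 TPM to 72.1 TPM and from 104 TPM to 70.7 TPM, in levels of the authors' deposited table. Of 70 tubulin, kinesin and dynein genes, 19 fell and 13 rose, 27.1% lower against 19.2% at the same levels. The abundant Tuba1b fell from 1751 TPM to 1234 TPM (estimate −0.52, SE 0.05, adjusted p = 3.2e-25) and the mitotic motor Kif11 fell from 58.6 TPM to 41.6 TPM. The transport kinesin Kif5c rose from 5.01 TPM to 8.15 TPM (estimate 1.35, SE 0.19, adjusted p = 1.01e-10). Of 43 Rab GTPases 10 rose and 0 fell, 23.3% higher against 14.2% at the same levels. Gelsolin (Gsn), which severs actin filaments, rose from 110.2 TPM to 229 TPM (estimate 1.05, SE 0.07, adjusted p = 1.92e-42), Capg, a capping protein, from 48.5 TPM to 127 TPM (estimate 1.40, SE 0.29, adjusted p = 1.89e-05), and Enah, which lengthens filaments, fell from 182 TPM to 108 TPM (estimate −0.77, SE 0.17, adjusted p = 6.48e-05). Of 19 annexin and S100 genes, 12 rose and 1 fell, and Anxa2 rose from 897 TPM to 1203 TPM (estimate 0.41, SE 0.07, adjusted p = 2.43e-08). The caveolin Cav1 fell from 282 TPM to 170.5 TPM (estimate −0.56, SE 0.07, adjusted p = 5.94e-12), with Cav2 and Cavin2 (estimate −0.47, SE 0.13 and estimate −0.60, SE 0.09).

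Muscle genes as a whole showed no single direction among called members, though the fusion and the energy and atrophy lists had mostly higher calls. Of 31 genes of satellite cells and of quiescence, 11 rose and 7 fell; Foxo3 rose from 24.8 TPM to 39.7 TPM (estimate 0.72, SE 0.07, adjusted p = 1.92e-24) and Foxo1 from 7.40 TPM to 12.4 TPM (estimate 0.73, SE 0.09, adjusted p = 7.95e-13), and Vcam1 and N-cadherin (Cdh2) fell, from 75.8 TPM to 57.9 TPM and from 133 TPM to 103 TPM. Of 29 myogenic transcription factors and cofactors, 5 rose and 7 fell: the inhibitors Id1, Id3 and Id4 rose, and Tead4 (from 42.7 TPM to 19.3 TPM; estimate −1.17, SE 0.30, adjusted p = 0.000917) and the methyltransferase Smyd1 (from 62.9 TPM to 42.9 TPM; estimate −0.61, SE 0.22, adjusted p = 0.0383) fell. Myogenin (Myog) was at 589 and 291 TPM and was not called (estimate −1.03, SE 0.54, adjusted p = 0.219). In the dystrophin complex, 5 rose and 2 fell of 23: α-sarcoglycan (Sgca) rose from 32.6 TPM to 71.9 TPM (estimate 1.05, SE 0.13, adjusted p = 6.46e-14) and Sntb1 fell from 24.1 TPM to 11.1 TPM (estimate −1.06, SE 0.35, adjusted p = 0.019). At the neuromuscular junction, the kinase Musk rose from 122 TPM to 148 TPM (estimate 0.23, SE 0.06, adjusted p = 0.00069), and its activator Dok7 (from 117 TPM to 92.3 TPM; estimate −0.49, SE 0.07, adjusted p = 1.6e-11) and the receptor subunit Chrnd (from 64.6 TPM to 51.7 TPM) fell. Of 32 excitation-contraction genes, 7 rose and 7 fell. Fusion genes had 8 higher and 2 lower of 30, 26.7% higher against 14.7% at the same levels. Muscle energy and atrophy genes had 8 higher and 1 lower of 23, 34.8% higher against 14.4%. The atrophy ligase Fbxo32 rose from 1.46 TPM to 3.05 TPM (estimate 1.06, SE 0.20, adjusted p = 2.5e-06).

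Sarcomere genes had low group means in Mutant with errors too wide for most to be called. Of 58 tested, 49 had a lower mean in Mutant and 9 a higher one (median log2 ratio −0.51), yet 5 fell and 5 rose, 8.62% each, against 14.2% higher and 18.8% lower at the same levels. The list summed to 8294 TPM in Control and 6422 TPM in Mutant. The fast light chain Mylpf was at 1056 and 545 TPM (estimate −0.95, SE 0.48, adjusted p = 0.19), embryonic myosin Myh3 at 172 and 78.6 TPM (estimate −1.14, SE 0.63, adjusted p = 0.257), titin (Ttn) at 192 and 143 TPM (estimate −0.57, SE 0.24, adjusted p = 0.0893) and skeletal actin Acta1 at 1025 and 708 TPM (estimate −0.55, SE 0.38, adjusted p = 0.427); all 4 missed the threshold. The median SE of the list was 0.44, against 0.10 for all genes of 10 to 100 TPM and 0.09 for the replication list. Myog, the factor that turns these genes on, had an SE of the same size (0.54). Which libraries differ cannot be read from group means. The members that fell were Actc1, Ankrd2, Mylk4 (from 11 TPM to 6.76 TPM; estimate −0.82, SE 0.19, adjusted p = 0.000165), Klhl40 and Xirp1, and those that rose were Nebl (from 0.847 TPM to 3.04 TPM; estimate 1.53, SE 0.36, adjusted p = 0.000327), Myh14, Myh7b, Mylk2 and desmin (Des; from 763 TPM to 892 TPM).

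**Figure D4:**
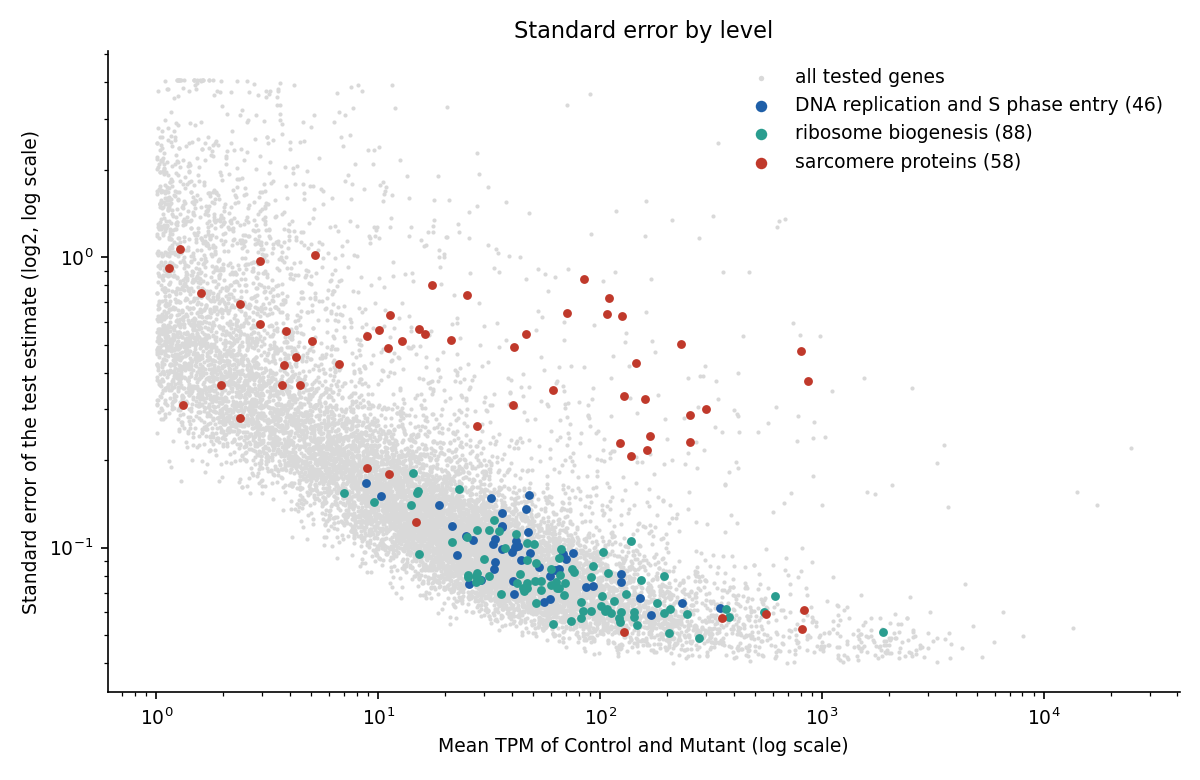
Standard error of the estimate (vertical, log2, log scale) by mean TPM (horizontal, log scale) for all tested genes in grey and 3 lists in colour. Most sarcomere genes, with a median SE of 0.44, sit above the grey band, while the replication genes (median 0.09) and ribosome biogenesis genes (median 0.08) lie within it.

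Families that are mostly silent in somatic cells had many members below 1 TPM. The filter keeps such a gene wherever 1 group is high enough, so counts over these families carry no weight. Of 55 germline genes in the authors' deposited table, many of them silenced by promoter methylation in somatic cells, 22 reached 1 TPM. The lymphoid-regulated Xlr4a rose from 0.851 TPM to 3.95 TPM (estimate 2.66, SE 0.73, adjusted p = 0.00267), Piwil4 from 0.578 TPM to 1.75 TPM (estimate 1.49, SE 0.49, adjusted p = 0.0176), and Hsf2bp fell from 15.8 TPM to 7.02 TPM (estimate −0.75, SE 0.24, adjusted p = 0.0147). Of 50 clustered protocadherins, 25 reached 1 TPM, and Pcdhb2 rose from 0.518 TPM to 1.68 TPM (estimate 2.31, SE 0.53, adjusted p = 0.000174). Of 37 Hox genes, 20 reached 1 TPM, and Hoxc13 and Hoxc6 rose, from 1.29 TPM to 3.29 TPM and from 15.1 TPM to 24.5 TPM. Imprinted genes moved both ways: Ndn and Impact rose, from 4.66 TPM to 8.27 TPM and from 33.9 TPM to 46.0 TPM, and Peg10 and Grb10 fell, from 48.2 TPM to 38.2 TPM and from 219.6 TPM to 178 TPM. Among 760 olfactory and vomeronasal receptor genes, 52 reached 1 TPM, and 1 of them, Olfr1033, stood far above the others (from 1578 TPM to 3502 TPM; estimate 1.14, SE 0.35, adjusted p = 0.00994).

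Among other transcription factor families, Sox, Fox and Klf genes were mixed, and nuclear receptors had only higher calls. Of 45 Sox, Fox and Klf genes, 11 rose and 9 fell. Sox4 rose from 31.3 TPM to 59.1 TPM (estimate 0.90, SE 0.08, adjusted p = 1.35e-24) and Klf4 from 11 TPM to 20.8 TPM (estimate 0.95, SE 0.13, adjusted p = 1.73e-11), while Sox11, a factor of embryonic progenitors, fell from 62.1 TPM to 33.2 TPM (estimate −0.92, SE 0.07, adjusted p = 4.17e-40) and Klf5 from 35.1 TPM to 23.5 TPM (estimate −0.59, SE 0.11, adjusted p = 1.37e-06). Of 30 nuclear receptors, 9 rose and 0 fell, and of the 16 of at least 10 TPM, 4 rose and 0 fell. The vitamin D receptor Vdr rose from 0.784 TPM to 2.36 TPM (estimate 1.24, SE 0.33, adjusted p = 0.00148) and Nr4a3 from 2.18 TPM to 4.46 TPM (estimate 1.05, SE 0.20, adjusted p = 5.75e-06). Vdr passed the minimum through its Mutant mean, so the count over all 30 carries no weight.

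Promoters of genes that rose and of genes that fell differed in CpG content, a feature that the choice of genes did not use. CpG dinucleotides are depleted in most of the genome because methylated cytosines mutate, and promoters that keep them are called CpG islands. In the 300-base RefSeq promoters (250 bases before and 50 after the start), the ratio of observed to expected CpG had a median of 0.685 among 1560.0 protein-coding genes that rose and 0.855 among 1466 that fell. A ratio of at least 0.6 was reached by 61.9% and 86.4% of them, while the median GC content was 61.7% and 62.0%. The same order held within level classes. Among genes of 10 to 100 TPM the medians were 0.714 and 0.853, and over 100 TPM they were 0.682 and 0.875. Between 80.8% and 84.0% of the called genes in these groups had a promoter in the table; in the class of 1 to 10 TPM fewer than 80% of them did, so no value is given there. No test was made of this description, since genes are not independent replicates. The ratio was not computed for genes that were not called, so whether either group differs from them is not known.

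**Figure D5:**
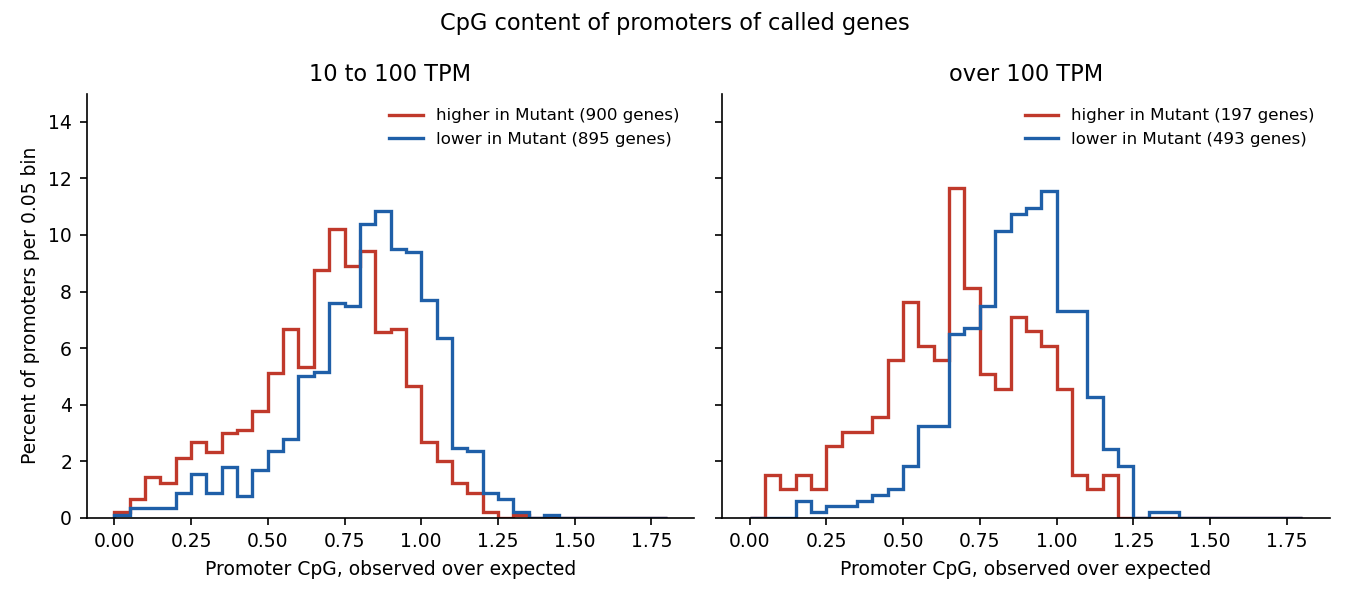
Distribution of the observed over expected CpG ratio in 300-base promoters (horizontal, no unit) as percent of promoters per bin (vertical), for protein-coding genes called higher (red) or lower (blue) in Mutant, at 10 to 100 TPM (left) and over 100 TPM (right). The curves of genes that fell lie farther right, with medians of 0.853 and 0.875 against 0.714 and 0.682.

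Called genes were spread over all autosomes. Among protein-coding genes, 15.5% rose and 14.5% fell. By chromosome the share that rose lay between 10.4% (X) and 19.9% (4) and the share that fell between 10.7% (18) and 20.7% (13), leaving aside the 8 genes of Y and the 13 of the mitochondrial genome. Chromosome 13 carries the largest histone cluster. Of 1117 pseudogenes, 11 rose and 16 fell.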

How the data were processed

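RNA-seq of muscle stem cells was used as a gene table with group means for 3 Control and 3 Mutant libraries, plus repeat counts per library. Per the submitters' processing notes, reads were trimmed with Trim Galore 0.6.6, aligned with STAR 2.7.6a, counted with featureCounts 2.0.1 and tested with DESeq2 on GRCm38/mm10. RNA was depleted of ribosomal RNA and libraries kept strand, per the labels' protocols. The authors deposited mean TPM per group, a log2 ratio of the means plus 1 TPM, and the output of their test: its standard error, its p-value before and after adjustment, and its statistic. This statistic is a score with no unit that the authors deposited as their test gave it. A second table holds the authors' log2 fold changes between the arms named PT and PUT. The repeat table holds the authors' deposited counts. The sources used here do not say which tool made the TPM.

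From these columns, direction was read from the log2 ratio, the estimate was computed as statistic times SE, and calls used the authors' adjusted p below 0.05. No model was fitted again, because the table has no value per library. The table holds 20 called genes whose log2 ratio and estimate differ in sign, C1qtnf6 and Notch1 among the named genes. Symbols were placed with GENCODE M21 (GRCm38), where 13563 of 13625 tested genes matched, and promoters with RefSeq (GRCm38.p6), where 9933 (72.9%) matched. Named genes are the 10 highest and 10 lowest estimates among called genes of at least 10 TPM, the 5 and 5 of 1 to 10 TPM, and in each list up to 3 called members at either end and the most abundant member. Mcm6, B2m, Lamp1, Tap1, Ifitm3, Mylpf, Mdm2, Ccng1, Npc2, H2-K1, H2-D1, Dnmt1, Myh3, Ttn, Psap and Notch1 were named after their values were seen. The genes and the lists were chosen with earlier results of these data known. A few items are not reported here. The call counting was tested on simulated data. Alternatives were another threshold, minimum level, pseudocount and direction. The 3 Cre Control libraries were not used, and 1 further deposited comparison, of arms that the labels do not map to a group, is given only as values at the end. Python 3.11.15, pandas 2.3.3 and numpy 2.4.6 were used.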

Additional observations from a re-analysis of the deposited data

How the results depend on the processing

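The split of calls held under most settings: 1465 higher and 1346 lower at an adjusted p below 0.01, 2044 and 1833 with no minimum level, 1944 and 1821 with the direction of the estimate, and 2147 and 2014 with p-values adjusted over the tested genes only. A minimum of 10 TPM gave 1358 higher and 1706 lower, so 44.3% of calls were higher, against 51.7%. Asking also for a ratio of at least 1.5 left 777 higher and 170 lower genes, 82.0% of them higher. With a pseudocount of 0.1, every list (markers included) kept its median log2 ratio within the median SE of its members. With the estimate in place of the ratio 2 lists moved farther, and at a minimum of 10 TPM 9 of them did. The sign of the median changed with the estimate in 7 lists, all with medians within 0.06 of 0, and at a minimum of 10 TPM in 15 lists. Among the 15 were the germline list (0.59 to −0.67), tetraspanins (0.20 to −0.01), Eph and ephrin genes (0.12 to −0.06), complement (0.11 to −0.22) and olfactory receptors (−0.07 to 1.22), several of which keep few members at that level. Among the entries of the 654 named genes, 176 had a log2 ratio that differed from the estimate by at least the SE. With a pseudocount of 0.1 this held for 100. Levels and estimates of a gene therefore need not give the same size of change. A further 2 changed sign: C1qtnf6, with an estimate of 0.55 (SE 0.20), had a log2 ratio of −0.21, and of −0.24 with a pseudocount of 0.1, and Notch1, with an estimate of 0.45 (SE 0.08), had −0.0151 and −0.0155. The cause was not tested. No paired analysis was possible because the authors' deposited table holds group means and no library has a column of its own, and for the same reason no library could be left out in turn, the library labelled Control 3 included. Depth per library is unknown, and the median SE of 0.34 at 1 to 10 TPM limits what could be called there.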

Other observations

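A further table of the authors compares 2 arms named PT and PUT, which the labels used here do not place in a group, so its values are set beside those of the Mutant and no difference between the tables was tested. In that table Uhrf1 had a log2 fold change of −4.0 (SE 0.27). Some genes that fell in Mutant had negative values there: −1.14 (SE 0.09) for Mcm5, −1.38 (SE 0.09) for Rrp9 and −0.82 (SE 0.07) for Idh3a, against estimates of −0.57, −0.50 and −0.60 in Mutant. Others that fell in Mutant had positive values: 1.40 (SE 0.12) for Ccne2, 0.52 (SE 0.07) for Atp5g2, 4.61 (SE 0.10) for mt-Nd1, 5.11 (SE 0.17) for mt-Atp6 and 4.24 (SE 0.12) for mt-Nd3. Gpx3, Mxd4 and Serpine2 had positive values, 1.43 (SE 0.23), 1.12 (SE 0.12) and 0.59 (SE 0.07), against 2.18, 1.68 and 2.11. For other genes that rose in Mutant the values of that table lay near or below 0: 0.16 (SE 0.10) for Cyp26b1, −0.47 (SE 0.54) for Isg15 and −0.24 (SE 0.07) for Ctsd, against 1.63, 2.51 and 0.70.

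A few single genes stand out for a closer look in the authors' deposited gene table. Olfr1033, annotated as an olfactory receptor, was listed at 1578 TPM in Control and 3502 TPM in Mutant, levels of an abundant gene. Sirt5, a mitochondrial deacylase, went from 95.2 to 224 TPM with an SE of 1.18 and was not called. Bglap2 and Alpl, known from bone-forming cells, were among the largest changes at low level, with Bglap2 listed at 0 in Control and at 6.06 TPM in Mutant and Alpl going from 0.411 to 6.37 TPM.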
